A study of Mus musculus with 10 samples.

Results

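Fatty acid desaturases add double bonds to fatty acids bound to coenzyme A, and the ELOVL elongases carry out the first, rate-setting step of their lengthening in the endoplasmic reticulum. The members described here were listed by gene symbol, with no threshold on their values, and were Scd1, Scd2, Fads1, Fads2, Elovl1, Elovl2, Elovl3, Elovl5 and Elovl6, which makes 9 of the 18193 genes with a named probe set in the table. They were read by 21 of the 45037 probe sets tested, each annotated to exactly 1 of these symbols, where several short probes on the Affymetrix array together read a transcript. The values came from the livers of 10 lactating mice of QSi5, an inbred strain derived from Quackenbush Swiss mice, with 1 array per mouse. The 5 HGI mice were kept from pregnancy to peak lactation on food of high glycaemic index, of which glucose made up 51.4% by weight (gross energy 15.6 MJ/kg). For the 5 LGI mice, on food of low glycaemic index over the same span, a starch that the labels call high amylase starch (Hi-Maze) made up 51.4% (16.3 MJ/kg). The labels give HGI mice a positive and LGI mice a negative energy balance, so diet and energy balance cannot be told apart, and they give no age, litter size or hour of sampling. The question the design puts to these genes is whether hepatic desaturation and elongation transcripts differ between the carbohydrate sources.

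In the liver, Scd1 makes monounsaturated fatty acids from saturated ones, and Elovl6 lengthens palmitate, the product of fatty acid synthase, into stearate. Linoleic and alpha-linolenic acid from the diet take a separate route, in which Fads2 places the first new double bond, Elovl5 lengthens the chain, Fads1 places another double bond, and Elovl2 lengthens the product further towards docosahexaenoic acid. Elovl1 and Elovl3 act mainly on saturated and monounsaturated chains of great length. Transcription of several of these genes is known to respond to SREBP-1c and the liver X receptors, and insulin and dietary polyunsaturated fat act on it in opposite directions.

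The HGI livers had about 1.5 times the LGI level of Fads1, Fads2 and Elovl2, all enzymes of the polyunsaturated route, and 1.76 times the level of Elovl6. Elovl3 was 1.64-fold lower in HGI livers. Scd1, Scd2, Elovl1 and Elovl5 differed by -0.14 to 0.20 on the log2 scale. After adjustment over all 45037 probe sets by limma, a linear model whose variance estimates are shared across probe sets, 0 of the 9 genes and 0 of the 21 probe sets passed an adjusted p of 0.05, against 0.0644% of all probe sets (29 in number). The smallest adjusted p among the members was 0.0666, for Fads2. At an unadjusted limma p under 0.05 stood 5 of the 9 genes, 4 higher in HGI (Fads1, Fads2, Elovl2 and Elovl6) and 1 lower (Elovl3), where 3.07% of all genes were higher and 6.23% lower by the same rule. In these counts a gene is represented by its probe set of the highest mean, called its brightest. The median difference of the 9 genes was 0.20, and that of all genes -0.03.

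Promoter sequence from RefSeq (build GRCm38.p6) was at hand for 5 of the 9 genes, Fads2, Elovl1, Elovl2, Elovl5 and Elovl6. The windows of Fads2, Elovl5, Elovl2 and Elovl6 are shown as those of the polyunsaturated route at hand (Fads2, Elovl5 and Elovl2) and of Elovl6, the gene that varied most among mice of 1 diet. Each runs 5′ to 3′ on the strand of its gene over the 250 bases before the annotated start, and for Elovl2 the window of the more upstream start is given. The windows are chr19:10101504-10101753 on the minus strand for Fads2, chr9:77917115-77917364 on the plus strand for Elovl5, chr13:41220404-41220653 on the minus strand for Elovl2 and chr3:129532136-129532385 on the plus strand for Elovl6. Capitals mark matches, on either strand, to CCAAT (the box bound by NF-Y), CACGTG (an E-box), AGGTCA (a single copy of the repeat in nuclear receptor sites) or GGGCGG (the GC box bound by Sp1).
Fads2: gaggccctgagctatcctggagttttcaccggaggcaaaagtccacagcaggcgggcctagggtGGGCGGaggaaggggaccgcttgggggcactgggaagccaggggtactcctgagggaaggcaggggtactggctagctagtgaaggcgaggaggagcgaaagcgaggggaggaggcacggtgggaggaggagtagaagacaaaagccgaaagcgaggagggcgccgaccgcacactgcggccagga
Elovl5: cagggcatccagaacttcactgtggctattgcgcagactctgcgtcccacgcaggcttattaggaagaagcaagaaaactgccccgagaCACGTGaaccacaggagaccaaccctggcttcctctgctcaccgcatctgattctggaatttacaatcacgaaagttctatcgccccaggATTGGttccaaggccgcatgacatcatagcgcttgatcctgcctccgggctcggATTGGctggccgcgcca
Elovl2: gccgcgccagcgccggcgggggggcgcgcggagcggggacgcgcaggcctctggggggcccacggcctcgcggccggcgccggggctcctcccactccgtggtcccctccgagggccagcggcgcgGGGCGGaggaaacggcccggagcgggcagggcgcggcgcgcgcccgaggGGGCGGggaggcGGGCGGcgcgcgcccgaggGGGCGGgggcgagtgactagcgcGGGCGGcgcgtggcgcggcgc
Elovl6: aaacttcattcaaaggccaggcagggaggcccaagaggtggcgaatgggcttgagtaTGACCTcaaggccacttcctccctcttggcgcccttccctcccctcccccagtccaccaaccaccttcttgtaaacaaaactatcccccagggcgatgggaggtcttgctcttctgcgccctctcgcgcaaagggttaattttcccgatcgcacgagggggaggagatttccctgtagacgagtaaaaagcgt

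The 4 windows differed in these letters. Fads2 held 1 GC box and Elovl2 held 5, in a window that was 87.2% G or C, while the window of the other Elovl2 start held no match. Elovl5 held 2 CCAAT matches, at 71 to 67 and 17 to 13 bases before the start, and 1 E-box. Elovl6 held 1 AGGTCA match and no GC box. Of the 2 Elovl1 windows, the upstream one held 5 GC boxes and 1 CCAAT match, which overlapped a GC box, and the other held 2 GC boxes and 1 AGGTCA match. Among 32851 promoter windows of the same length, 32.74% held a GC box, 33.85% CCAAT, 14.02% AGGTCA and 6.02% the E-box. TCACNCCAC, the core letters of a sterol response element, and pairs of AGGTCA spaced by 1 or by 4 bases, the spacings read by PPAR and liver X receptors, had no match in any member window, and stood in 1.05%, 0.03% and 0.02% of all windows. These are matches of letters and say nothing of binding in these livers.

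Correlations between arrays singled out LGI 4 and HGI 1, which had the lowest mean correlation with their own group (0.988 and 0.989, against 0.991 to 0.993 for the others). HGI 1 also had the narrowest spread of values (SD 2.16, against 2.26 to 2.31). Hepatocyte markers were bright in all livers, with a summed linear signal of 111584 to 116495 in HGI and 109289 to 114463 in LGI mice for the 8 measured. Of 6 measured adipocyte markers, which matter because fat cells hold much Scd1 and Elovl6, 4 (Adipoq, Lep, Cidea and Ucp1) lay below the median of every array. Of the others, Fabp4 stood at 1.08 (adjusted p = 0.276) and Retn at -0.07 (adjusted p = 0.907). The list had 4 genes above and 2 below 0, with a median of 0.02. The adipocyte sum, led by Fabp4 as the brightest of the 6, was 171 to 459 in HGI and 152 to 207 in LGI livers. The HGI minus LGI differences of 3 further marker lists lay above 0 without exception, 10 of 10 for Kupffer cells (sum 2571 to 4457 in HGI, 2128 to 3617 in LGI), 9 of 9 for liver endothelium (1176 to 1684 in HGI, 1026 to 1442 in LGI) and 4 of 4 for erythroid cells (559 to 1348 in HGI, 271 to 716 in LGI). Among them, Slc4a1, the anion exchanger of red cells, stood at 2.25 (adjusted p = 0.0625) and Stab2, a scavenger receptor of sinusoidal endothelium, at 0.76 (adjusted p = 0.217), while Pecam1 lay below the median of 7 arrays and Hba-a1 below that of all 10. The medians of the stellate, biliary, lymphocyte and mammary lists lay between -0.09 and 0.06. The part of these markers in the differences below was not tested. In bulk liver, fewer cells of a type and less RNA per cell cannot be told apart.

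**Figure D1:**
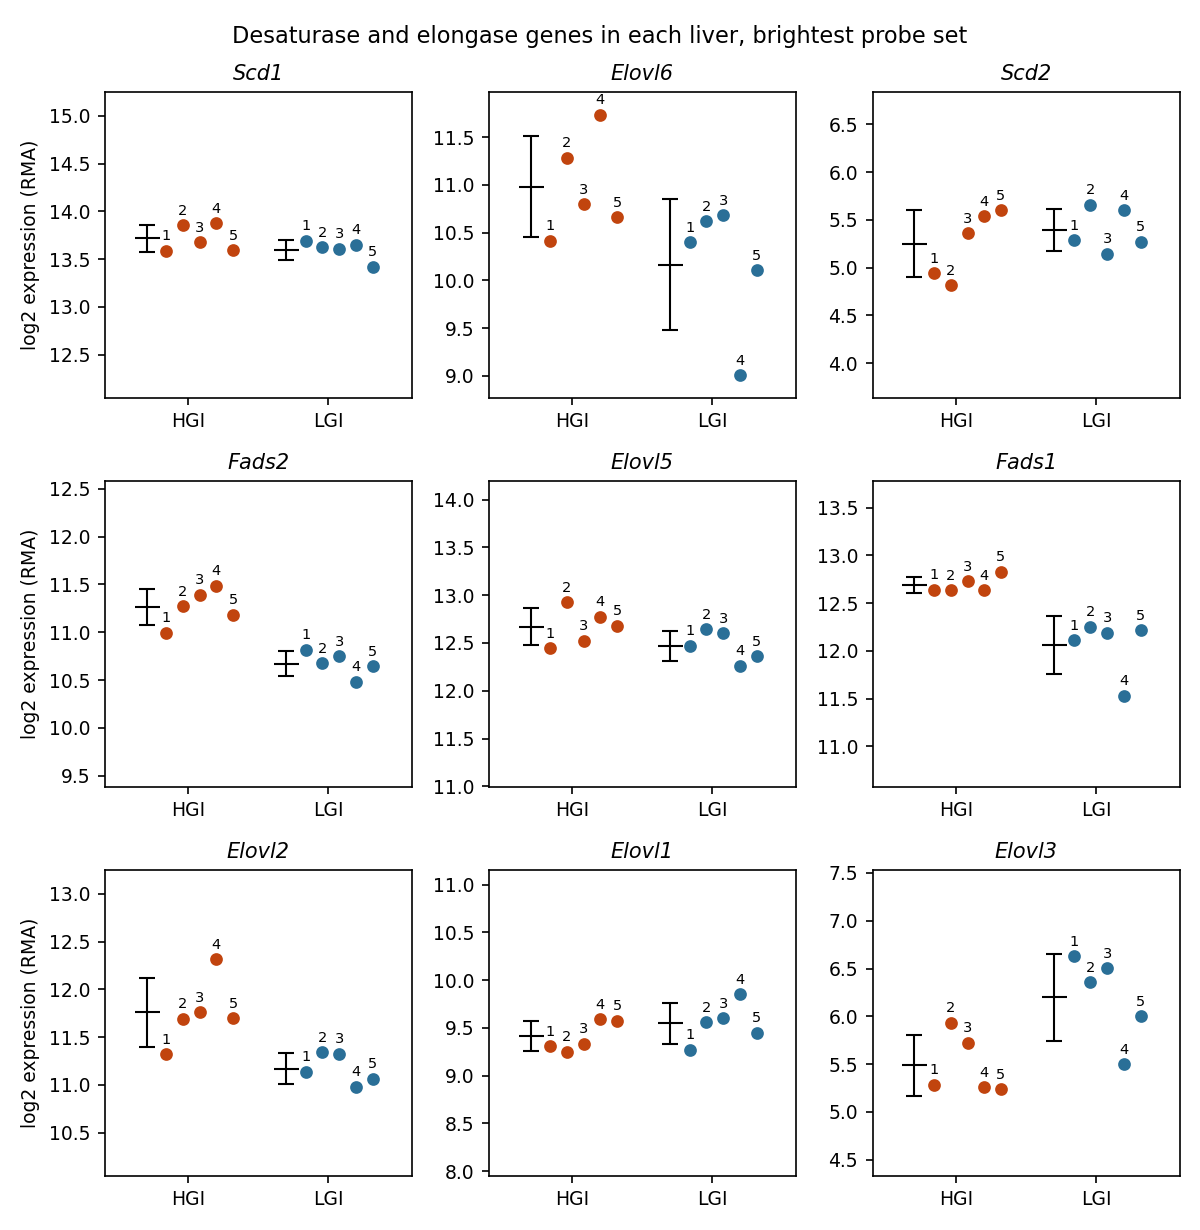
Log2 expression of the 9 genes at their brightest probe set in each liver, HGI on the left of each panel and LGI on the right. Points are mice, marked with their replicate number, bars are the mean ± SD of 5 mice, and every panel spans 3.2 log2 units. Points of the diets do not overlap for Fads2 and Fads1 and overlap for the other 7 genes, for Elovl2 by 0.02.

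Fads2, the desaturase that opens the polyunsaturated route, had log2 values of 10.99, 11.27, 11.39, 11.49 and 11.18 in HGI mice 1 to 5, against 10.82, 10.67, 10.75, 10.48 and 10.64 in LGI mice 1 to 5 at its brightest probe set (1449325_at). All HGI livers lay above all LGI livers, with a gap of 0.18 between the lowest HGI and the highest LGI value. The fold of HGI over LGI was 1.51, with a 95% confidence interval of 1.29 to 1.76 (limma adjusted p = 0.0666). An exact two-sided permutation over all splits of the 10 arrays into 5 and 5 gave p = 0.00794, the smallest it can give. The other Fads2 probe sets had like differences of 0.68 ± 0.17 and 0.56 ± 0.18 (log2 ± SE, adjusted p = 0.270 and 0.464), and the groups also separated at the first of these.

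Fads1, which adds the next double bond after the Elovl5 step, had 12.64, 12.63, 12.73, 12.64 and 12.83 log2 in HGI mice 1 to 5, against 12.11, 12.25, 12.19, 11.53 and 12.21 log2 in LGI mice 1 to 5 (probe set 1423680_at). The HGI livers lay within 0.20 of each other and all above the LGI livers, among which LGI 4 was the lowest. The fold was 1.55 (interval 1.28 to 1.87, limma adjusted p = 0.121, exact permutation p = 0.00794). A second, dimmer Fads1 probe set (1440444_at) stood at 6.87 ± 0.83 in HGI and 5.70 ± 0.48 log2 in LGI livers (SD, n = 5 each), a difference of 1.17 ± 0.34 (SE) with overlapping groups (limma adjusted p = 0.382). Deviations of mice from their diet mean at this probe set followed those at the bright one weakly (r = 0.19 over 10 arrays).

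Fads1 and Fads2 were the 2 genes of 9 whose diets did not overlap, both higher in HGI, where 0.500% of all genes did so. Without LGI 4 and HGI 1, both passed, Fads1 at 0.51 (adjusted p = 0.0430) and Fads2 at 0.61 (adjusted p = 0.0350), among 0.129% of all probe sets that passed in that fit. In those 8 livers 4 of the 9 genes separated the diets, Fads1, Fads2 and Elovl2 higher in HGI, where 2.79% of all genes did so, and Elovl3 lower, where 4.00% did. Without LGI 4 alone Fads1 passed (0.50, adjusted p = 0.0496), and without HGI 1 alone Fads2 passed (0.66, adjusted p = 0.0452).

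Elovl2, which lengthens the longer polyunsaturated chains, was read by 1 probe set (1416444_at). It had 11.32, 11.69, 11.76, 12.32 and 11.70 log2 in HGI mice 1 to 5, against 11.14, 11.34, 11.33, 10.98 and 11.07 log2 in LGI mice 1 to 5. HGI 1 lay 0.02 under the highest LGI liver and the other 4 HGI livers lay above all LGI ones, with HGI 4 highest. The fold was 1.50 (interval 1.20 to 1.88, limma adjusted p = 0.278, exact permutation p = 0.0238).

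Elovl5, which lengthens the first desaturation products, was 12.45, 12.93, 12.53, 12.78 and 12.68 log2 in HGI mice 1 to 5, against 12.47, 12.64, 12.60, 12.26 and 12.36 log2 in LGI mice 1 to 5 (probe set 1437211_x_at). The groups overlapped, and HGI 1 and HGI 3 lay among the LGI livers. The difference was 0.20 with an interval of -0.03 to 0.44 (limma adjusted p = 0.721), and 0.25 with an interval of -0.01 to 0.51 at the other probe set. The first interval reaches, as a fold, from 0.979 to 1.35. Whether the Elovl5 difference is smaller than that of Fads1, Fads2 or Elovl2 was not tested.

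**Figure D2:**
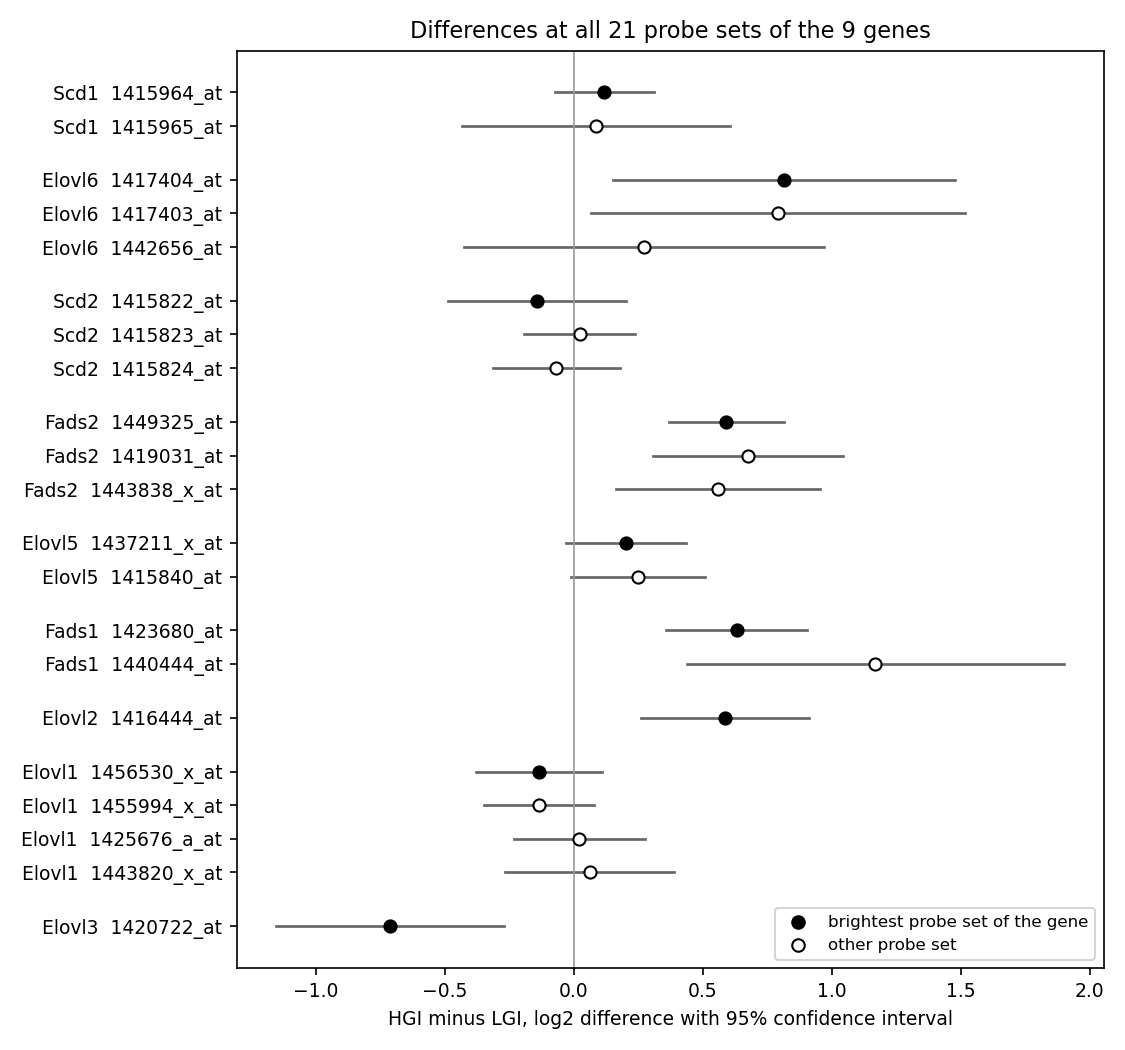
Difference between HGI and LGI livers (log2, HGI minus LGI) at each of the 21 probe sets, with the 95% confidence interval from limma, 5 mice per diet. Filled points are the brightest probe set of each gene. All 6 probe sets of Fads1, Fads2 and Elovl2 have intervals above 0, that of Elovl3 lies below 0, and those of Scd1, Scd2, Elovl1 and Elovl5 include 0.

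Among the enzymes that handle newly made fatty acids, Elovl6 had 10.42, 11.28, 10.80, 11.74 and 10.66 log2 in HGI mice 1 to 5, against 10.40, 10.62, 10.68, 9.01 and 10.11 log2 in LGI mice 1 to 5 (probe set 1417404_at). HGI 4 and HGI 2 stood above the rest and LGI 4 far below it, while the other livers of both diets lay between 10.11 and 10.80. The fold was 1.76 with a wide interval, 1.11 to 2.79 (limma adjusted p = 0.545, exact permutation p = 0.0556). Without LGI 4 the log2 difference was 0.53 (adjusted p = 0.624), against 0.82 with all mice. A second probe set gave the same picture (0.79, r = 0.98 between the deviations at both), and the remaining dim one stood at 0.27 (interval -0.42 to 0.97).

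Scd1, the main desaturase of the liver for oleate and palmitoleate, had 13.59, 13.86, 13.68, 13.88 and 13.59 log2 in HGI mice 1 to 5, against 13.69, 13.62, 13.61, 13.65 and 13.42 log2 in LGI mice 1 to 5 (probe set 1415964_at). The groups overlapped, with HGI 1, HGI 3 and HGI 5 inside the LGI range. The fold was 1.09, with an interval of 0.951 to 1.24 (limma adjusted p = 0.827). These values lie near the highest on each array (14.65 to 14.71), and the table carries no mark of saturated probes. The dimmer Scd1 probe set (1415965_at) was well below that range, at 9.55 to 10.98 log2 in HGI and 9.67 to 10.31 log2 in LGI livers, and its fold of 1.06 had an interval of 0.742 to 1.52. At that probe set HGI 2 reached 10.98 and HGI 4 10.44, and the other HGI livers lay between 9.55 and 9.74.

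Scd2, an isoform best known from brain and from newborn tissues, was dim in these livers. Its brightest probe set (1415822_at) ranged from 4.82 to 5.60 log2 in HGI and from 5.15 to 5.66 log2 in LGI livers, and its difference was -0.14 (interval -0.49 to 0.20, limma adjusted p = 0.903). The remaining probe sets stood at 0.02 and -0.07, and the dimmest lay below the array median in all 10 livers. Deviations of mice from their diet mean at the 3 Scd2 probe sets had r between -0.36 and 0.04 with each other over 10 arrays.

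Of the elongases for very long saturated and monounsaturated chains, Elovl3 had 5.28, 5.93, 5.72, 5.26 and 5.24 log2 in HGI mice 1 to 5, against 6.63, 6.36, 6.50, 5.50 and 6.001 log2 in LGI mice 1 to 5 (probe set 1420722_at). LGI 1, LGI 2, LGI 3 and LGI 5 lay above all HGI livers, and LGI 4 lay inside the HGI range. The log2 difference was -0.71 ± 0.20 (SE), a 1.64-fold lower level in HGI (interval of the log2 difference -1.15 to -0.27, limma adjusted p = 0.377, exact permutation p = 0.0317). Without LGI 4 it was -0.89 and still short of the threshold (adjusted p = 0.0861). Elovl3 is known to be higher in male than in female mouse liver and to cycle over the day. Its signal was modest and came from a single probe set.

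Elovl1, an elongase of most tissues that feeds sphingolipid synthesis, ranged from 9.25 to 9.59 log2 in HGI and from 9.27 to 9.86 log2 in LGI livers at its brightest probe set (1456530_x_at). The difference was -0.14 (interval -0.38 to 0.11, limma adjusted p = 0.849). A second probe set followed it closely (-0.13, r = 0.96), whereas the probe set 1425676_a_at stood at 0.02 and ran against both (r = -0.39 and -0.53). The suffix _x_at marks sets with probes that can also bind other transcripts. The dimmest Elovl1 set stood at 0.06 and lay below the array median in 8 of the 10 livers.

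Several members had the same mice at the ends of their diet range. For how many of all genes these mice were lowest or highest was not counted. Over all probe sets LGI 4 and HGI 1 were also the arrays least like their group, so the counts below are not particular to the members. LGI 4 was the lowest LGI liver for 6 of the 9 genes (Fads1, Fads2, Elovl2, Elovl3, Elovl5 and Elovl6) and the highest for Elovl1. HGI 1 was the lowest HGI liver for 5 genes (Scd1, Fads2, Elovl2, Elovl5 and Elovl6), and HGI 4 the highest for 5 (Scd1, Fads2, Elovl1, Elovl2 and Elovl6). The SD within a diet was greatest for Elovl6 (0.61 on the log2 scale), followed by Elovl3 (0.39), and smallest for Scd1 (0.12) and Fads2 (0.16).

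**Figure D3:**
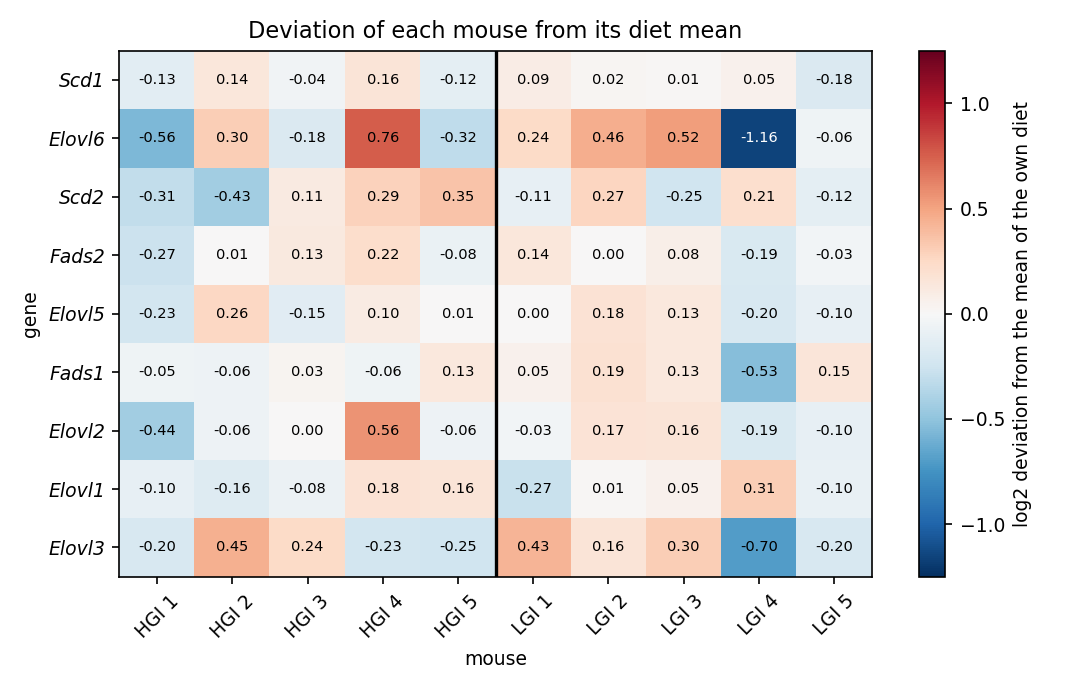
Deviation of each mouse from the mean of its own diet, in log2 units, for the 9 genes at their brightest probe set. HGI mice are left of the line and LGI mice right of it. LGI 4 has the deepest values, -1.16 for Elovl6 and -0.70 for Elovl3, and HGI 4 the highest, 0.76 for Elovl6.

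Correlations of these deviations are given as a description over 10 livers, in which each pair of genes shares its arrays. Fads2 ran with Elovl2 (Pearson r = 0.82, Spearman rho = 0.78, and r = 0.65 in the 8 livers without LGI 4 and HGI 1). Elovl6 ran with Elovl5 (r = 0.81, rho = 0.79, and 0.70 without both livers), with Fads2 (r = 0.79, rho = 0.75, and 0.60) and with Elovl2 (r = 0.77, rho = 0.82, and 0.84). Fads1 and Fads2, whose difference between diets was of like size, ran together little within a diet at their brightest probe sets (r = 0.38, rho = -0.02). Without both livers the sign turned (r = -0.69). Deviations at the brightest Fads2 probe set followed those at the other Fads2 sets only partly (r = 0.46 and 0.22), while the others followed each other (r = 0.84). Likeness of the other Fads2 sets to Fads1, Elovl2 or Elovl6 was not computed, so these values hold for the brightest sets only. Elovl1 and Elovl3 ran opposite to each other at their brightest probe sets (r = -0.75, rho = -0.75, and -0.69). The Elovl1 probe set 1425676_a_at ran against the brightest Elovl1 set (r = -0.39). Its likeness to Elovl3 was not computed, so the opposite course holds for the brightest set only.

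The genes whose deviations were most like those of a member were taken from 7154 candidates whose mean log2 reached 6. For Elovl6 they were Tlcd2 (r = 0.97), Prepl (r = 0.97) and Acly, the ATP citrate lyase that supplies acetyl-CoA for fatty acid synthesis (r = 0.97), with r without LGI 4 and HGI 1 of 0.94, 0.94 and 0.896. For Elovl3 they were Gstm6 (r = 0.96), Ebp, an isomerase of cholesterol synthesis (r = 0.95), and Ppp6r1 (r = 0.95), with r without both of 0.94, 0.907 and 0.93. For Fads2 they were Ahr, the aryl hydrocarbon receptor (r = 0.96), Mtch2 (r = 0.95) and Rabif (r = 0.95), with r of 0.84 or more without both. For Scd1 they were Fyttd1 (r = 0.95), Ccni (r = 0.94) and Tmem184c (r = 0.93), with r of 0.94 or more without both. For Fads1 they were Txnl4b (r = 0.96), Cyp46a1 (r = 0.96) and Fxr2 (r = 0.96), and r without both was 0.83, 0.37 and 0.60. None of these genes passed the adjusted threshold between diets. Taking the highest r of 7154 candidates favours high values, and how high r would reach by chance was not tested. The r without LGI 4 and HGI 1 came from livers already used in the choice, so it is no separate check. For Fads2, deviations at the other probe sets followed those at the brightest only partly (r = 0.46 and 0.22). Likeness of Ahr, Mtch2 and Rabif to those other sets was not tested.

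Of 101 further genes in 8 pathway lists, 96 were measured, and 0 passed the adjusted threshold, with a smallest adjusted p of 0.196. At an unadjusted limma p under 0.05 stood 7 higher and 9 lower in HGI, and their median difference was -0.01. In the list for making palmitate, the substrate of Elovl6, 9 of 10 genes had values above 0, 4 of them at an unadjusted p under 0.05 (Acly, Acss2, Acaca and Fasn), and the median was 0.25. Without LGI 4 the median was 0.12, with 8 of 10 genes above 0 and 2 at an unadjusted p under 0.05. Acss2 was then 0.38, against 0.76 with all mice, Fasn 0.25, against 0.50, and Thrsp -0.33, against 0.01. Acaca, acetyl-CoA carboxylase, stood at 0.65 ± 0.22 (log2 ± SE, adjusted p = 0.479) and Acly at 0.75 ± 0.29 (adjusted p = 0.570), the last 0.46 without LGI 4.

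In the list for peroxisomal shortening, the step that turns the longest polyunsaturated chains into docosahexaenoic acid, 9 of 12 genes had values below 0, with 4 at an unadjusted p under 0.05 and a median of -0.17. Over the whole table, too, more genes lay below 0 than above it (7611 of 18193 above), and 6.23% were lower at that p. Acaa1b, a peroxisomal thiolase, had 11.48, 12.17, 12.80, 12.55 and 11.80 log2 in HGI mice 1 to 5, against 12.96, 13.15, 12.84, 13.23 and 13.13 log2 in LGI mice 1 to 5. All HGI livers lay below all LGI ones (-0.90 ± 0.21, limma adjusted p = 0.196, exact permutation p = 0.00794). Ehhadh, the peroxisomal bifunctional enzyme that PPARalpha induces, also separated the diets, at -0.83 ± 0.25 (adjusted p = 0.424), a difference of -0.42 in the 8 livers without LGI 4 and HGI 1. Outside this list, Acsm1, of the acyl-CoA synthetases, separated the diets downwards as well. How many of all genes separated downwards with all mice was not counted, so the separation of Acaa1b, Ehhadh and Acsm1 has no share to be read against.

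Of 11 genes for later elongation steps and electron supply, 5 lay above and 6 below 0, with a median of -0.08. Tecr, the reductase that closes each elongation cycle, stood at 0.35 ± 0.13 (adjusted p = 0.524), and Hacd1, one of its dehydratases, at -0.48 ± 0.17 (adjusted p = 0.504). Of 7 other desaturases and elongases, 6 lay below 0, the side on which most of all genes lay, and 0 had an unadjusted p under 0.05. Their values ran from -0.15 to 0.04, among them Fads6 (-0.15, adjusted p = 0.908) and Elovl7 (-0.14, adjusted p = 0.805). Elovl4, Elovl7 and Degs2 lay below the array median in all 10 livers and Scd3 in 9, so that 4 of the 7 were dim. Among acyl-CoA synthetases and binding proteins, Acsl5 stood at 0.32 (adjusted p = 0.564) and Acsm1 at -0.46 (adjusted p = 0.235), with 5 of 10 genes above 0.

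The 25 measured regulators had a median of -0.01, with 12 above and 13 below 0. Scap, the escort of SREBP proteins, stood at 0.56 ± 0.23 (adjusted p = 0.615, and 0.30 without LGI 4), and Nr1d2, a clock repressor, at -0.42 ± 0.18 (adjusted p = 0.624). Srebf1, which encodes SREBP-1, stood at -0.24 ± 0.23 (adjusted p = 0.884), and at -0.04 without HGI 2. Mlxipl, which encodes ChREBP, stood at 0.13, Insig2 at 0.20, Ppara at 0.10, Insig1 at -0.04 and Nr1h3, the liver X receptor alpha gene, at -0.07, with adjusted p from 0.838 to 0.972, and the signs of Mlxipl, Ppara, Insig1 and Nr1h3 turned when single livers were left out.

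**Figure D4:**
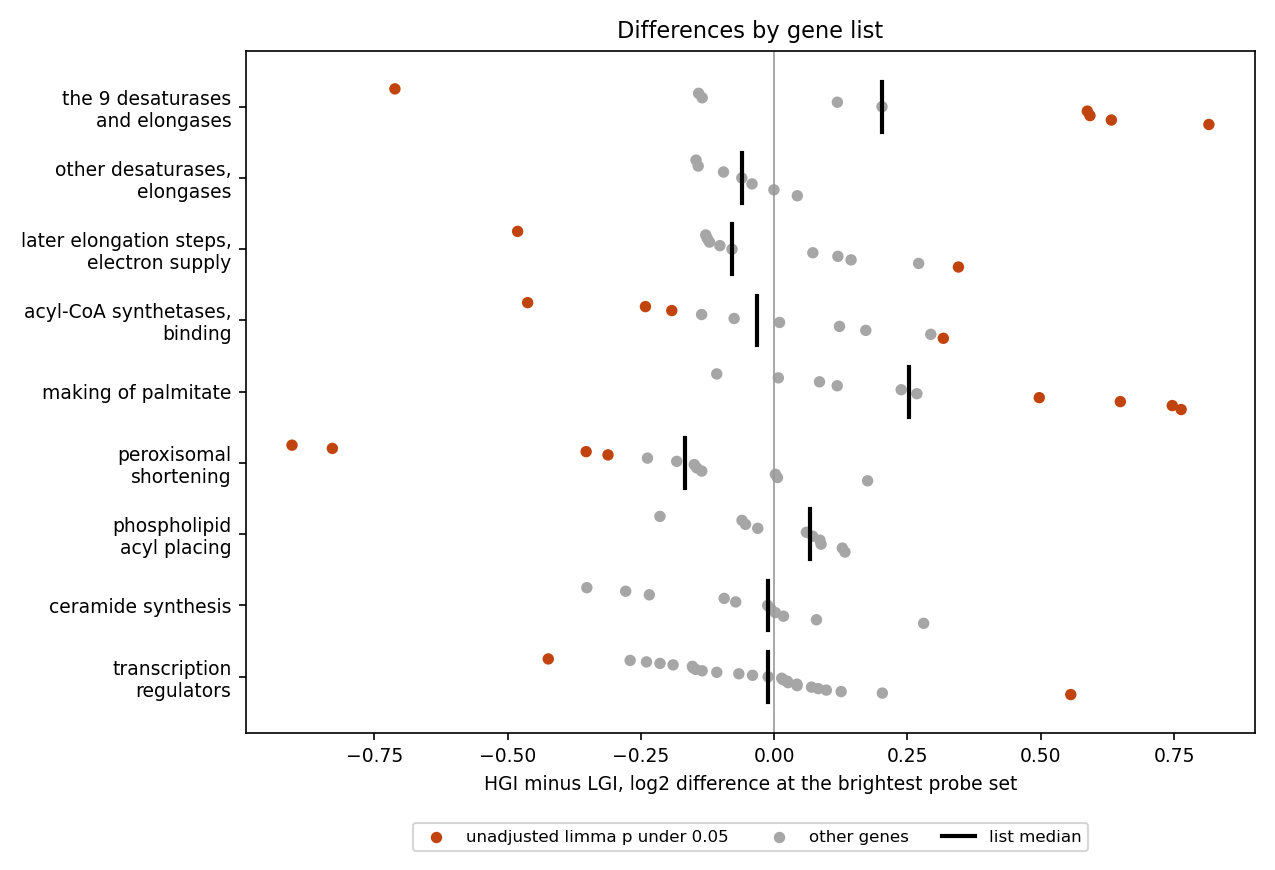
Difference between HGI and LGI livers (log2, HGI minus LGI) for the 9 genes and for the genes of 8 pathway lists, each at its brightest probe set. Red points have an unadjusted limma p under 0.05, grey points do not, and black bars are list medians, from -0.17 for peroxisomal shortening to 0.25 for making palmitate.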

How the data were processed

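Liver RNA of 10 mice was biotin-labelled (one-cycle method) and hybridised to Affymetrix arrays. The authors deposited log2 values, 1 per probe set and array, made with RMA (background correction, normalization between arrays, summary of probes) and R 2.6.1, per the submitters' processing notes. Of 45101 probe sets, 64 control sets were left out and none was filtered for low signal. With a minimum mean log2 of 6, 7 of the 9 members would remain. Names came from the platform annotation, with 34945 probe sets of 1 symbol, 932 of several and 9160 of none. Of the first, 34741 gene IDs matched RefSeq (GRCm38.p6), which altered 0 symbols.

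HGI was compared with LGI over the whole table with limma 3.58.1 in R 4.3.3 (lmFit, eBayes), Benjamini-Hochberg adjustment and a threshold of 0.05, and with exact permutation for single genes. The members, the lists and the rule for named genes (all members, genes past the threshold or the 2 of smallest p in each list, 6 regulators, 3 like genes for 5 members) were chosen with earlier results of these data known. The fit was tested on simulated data with independent noise. The differences added there were larger than those of the members at their brightest probe sets. That test therefore does not show how often differences of the members' size would be found. Alternatives were filters on the mean, quantile or median rescaling, a replicate block, weighting of arrays, a trended robust fit, a single or averaged probe set for each gene, and leaving out mice. The labels state no pairing of same-numbered mice, and the correlation of their deviations was -0.13 to 0.04. Such values cannot exclude a pairing that leaves little shared variation. The precision is limited by 5 arrays per diet.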

Additional observations from a re-analysis of the deposited data

Results flagged for a closer look

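At 4 of the 42 combinations of a member probe set and a diet, 1 mouse lay far from the other 4 by Dixon's criterion, and chance gives about 1 in 20. In LGI 4, Fads1 (1423680_at) was 11.53 log2, the rest of its diet being 12.11 to 12.25, and Elovl6 (1417403_at) was 7.93 log2, against 9.28 to 9.71. HGI 4 had 5.97 log2 at the dim Elovl6 probe set 1442656_at, against 4.48 to 4.86 in the other HGI mice. HGI 5 had 3.15 log2 at the dimmest Scd2 probe set (1415824_at), against 2.83 to 2.92. LGI 4 had the lowest correlation with its group of all arrays.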

How the results depend on the processing

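Under 20 alternatives the 9 genes kept their sign in all 178 values. These were read at the brightest probe set, or over all probe sets of a gene where those were averaged. The mean filters, trended robust fit, 1 probe set per gene and replicate block leave the difference unchanged, so no sign could turn there. Elsewhere small differences moved. Scd2 was -0.0331 without HGI 2 and -0.0125 without HGI 1 and LGI 4, against -0.14 with all mice. Elovl1 was -0.0583 without LGI 4 and -0.0328 without both, against -0.14 with all mice. Member calls moved between 0 and 2. As deposited 0 members passed. Fads2 passed (1 member) with a mean log2 of at least 6 (adjusted p = 0.0436), after quantile normalization again (0.0149), with array weights (0.0199) and with 1 probe set per gene (0.0463). Without HGI 1 and LGI 4 together, 2 members passed, and 4 genes (in place of 2) separated the diets, where 2.79% of all genes separated upwards and 4.00% downwards. Leaving out 1 mouse gave 0 to 1 called members, whether counted as genes or as probe sets. The count over all probe sets, 29 as deposited, was 63 after quantile normalization again, 17 with median centring, 64 with array weights and 58 without HGI 1 and LGI 4, and 5 to 49 without 1 mouse. The replicate block, for numbers not known to pair the mice, gave 33 calls over all probe sets and 0 members. Insig1 turned to 0.0185 after quantile normalization again and to 0.0154 without HGI 1 and LGI 4, where Nr1h3 was 0.0655. With 1 mouse left out, the sign turned for the second Scd1 set (-0.14 to 0.22), the dimmer Scd2 sets (-0.0301 to 0.0691 and -0.14 to 0.0078), Elovl1 at 1425676_a_at (-0.0316 to 0.0939) and 1443820_x_at (-0.0593 to 0.16), Insig1 (-0.14 to 0.0461), Mlxipl (-0.0408 to 0.30), Nr1h3 (-0.12 to 0.0243) and Ppara (-0.0039 to 0.19). List medians without LGI 4, or without it and HGI 1, were added after seeing the data, and those near 0 turned: ceramide synthesis to 0.0228 without LGI 4, and the regulators to 0.0028 without LGI 4 and 0.0408 without both. The cause was not tested. Elovl3 and Scd2 have no value under the mean filter of 6.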

Other observations

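Of 10 genes that place unsaturated chains into phospholipids, 6 lay above 0 and 4 below, with 0 at an unadjusted limma p under 0.05 and a median of 0.07. Lpcat1, a lysophosphatidylcholine acyltransferase, stood at 0.13 (adjusted p = 0.808) and Mboat1 at 0.09 (adjusted p = 0.878). Of 11 genes of ceramide synthesis, which draws on very long chains from Elovl1 and Elovl3, 4 lay above and 7 below 0, with 0 at an unadjusted limma p under 0.05 and a median of -0.01. Ugcg, which makes glucosylceramide, stood at 0.28 ± 0.14 (log2 ± SE, adjusted p = 0.687), and Sgms1, a sphingomyelin synthase, at -0.35 ± 0.18 (adjusted p = 0.701).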
